A study of Mus musculus with 24 samples.

Results

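The 12 subcutaneous fat pads of the study differed widely in Ckm, which encodes the creatine kinase of striated muscle, and they are compared here by that gene. Pads with a log2 Ckm intensity above 7.5 formed one set of 5, and pads below 7 formed the other set of 7, so that all 12 of the 12 subcutaneous samples were placed, out of 24 samples in the series. The pads were chosen by these measured values, and every gene was then described across them. In the higher set Ckm was 9.11, 8.67, 8.12, 7.88 and 7.55 in mice 170, 173, 135, 158 and 159. In the lower set it was 6.57, 6.55, 6.33, 6.13, 6.08, 5.96 and 5.87 in mice 106, 162, 161, 140, 130, 169 and 60. The nearest values on each side of the boundary were thus those of mouse 159, at 7.55, and mouse 106, at 6.57.

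The study profiled total RNA of subcutaneous and visceral adipose tissue from 12 mice, with 1 Affymetrix array per sample and 8 groups of 3 samples. Mice 60, 135 and 173 (females) and 106, 130 and 158 (males) carried aP2-Tagln2, and mice 140, 169 and 170 (females) and 159, 161 and 162 (males) were wild-type. Transgelin-2, the product of Tagln2, binds actin. aP2 names the regulatory region of Fabp4, which is active in adipocytes and also in other cells such as macrophages. The labels give no age, no founder line and no dissection procedure. The set with high Ckm held 3 aP2-Tagln2 and 2 wild-type mice, 3 of them females and 2 males, and the set with low Ckm held 3 aP2-Tagln2 and 4 wild-type mice, 3 females and 4 males.

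Skeletal muscle fibres contract when calcium, released from the sarcoplasmic reticulum, binds troponin on actin filaments and lets myosin heads pull on them. Fast fibres use their own set of myosin, troponin and calcium-pump genes and draw energy mainly from creatine phosphate and glycogen, whereas slow fibres use a second set of contractile genes and rely on oxygen-based metabolism. The inguinal subcutaneous pad of the mouse lies against the muscles of the body wall and thigh. In whole tissue, more muscle fibres in a sample and more muscle RNA per cell cannot be told apart.

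Regulatory sequence of 4 members is printed because these genes were higher together in the same pads and because E-box and MEF2 motifs are the classical elements of muscle promoters. Each is the stretch of 250 bases before the annotated start, 5′ to 3′ along the gene, from RefSeq on build GRCm38.p6, and capitals mark each E-box (CANNTG). The stretches are chr7:19410844-19411093 on the plus strand for Ckm, chr11:67237562-67237811 on the plus strand for Myh4, chr7:127211358-127211607 on the plus strand for Mylpf and chr7:126463074-126463323 on the minus strand for Atp2a1.
Ckm: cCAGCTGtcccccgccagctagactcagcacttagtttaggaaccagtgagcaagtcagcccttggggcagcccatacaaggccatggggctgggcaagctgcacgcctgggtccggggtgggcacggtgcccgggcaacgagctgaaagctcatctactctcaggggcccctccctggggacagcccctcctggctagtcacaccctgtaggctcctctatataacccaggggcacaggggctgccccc
Myh4: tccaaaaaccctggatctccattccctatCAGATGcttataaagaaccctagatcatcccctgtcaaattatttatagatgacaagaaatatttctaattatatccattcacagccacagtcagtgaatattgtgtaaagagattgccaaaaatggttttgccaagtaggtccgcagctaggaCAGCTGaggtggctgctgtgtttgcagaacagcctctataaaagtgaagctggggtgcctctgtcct
Mylpf: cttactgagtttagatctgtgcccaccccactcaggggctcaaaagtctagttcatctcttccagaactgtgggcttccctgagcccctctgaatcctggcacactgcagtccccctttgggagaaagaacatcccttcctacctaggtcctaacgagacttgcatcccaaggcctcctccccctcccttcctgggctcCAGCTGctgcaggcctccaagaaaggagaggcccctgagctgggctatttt
Atp2a1: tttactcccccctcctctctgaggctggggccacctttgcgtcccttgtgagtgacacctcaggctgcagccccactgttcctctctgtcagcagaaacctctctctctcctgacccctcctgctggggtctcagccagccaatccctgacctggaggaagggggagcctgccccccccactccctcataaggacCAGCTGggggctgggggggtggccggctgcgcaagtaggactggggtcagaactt
Myh4 held 2 E-boxes and 1 match to the MEF2 motif, which did not overlap them, and the other 3 stretches held 1 E-box each and no MEF2 match. Both motifs were searched on both strands. Of the 63 genes described below as higher in the pads with high Ckm, 48 had an entry, with 57 promoters. An E-box lay in 78.9% of those promoters and in 66.2% of all 32851 promoters of the same length. The MEF2 motif lay in 24.6% (14 of 57) and in 2.92% respectively. A match is a description of the letters and not a bound site.

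A gene was counted as higher or lower where the 5 pads did not overlap the 7 pads and the means differed by at least 1 on the log2 scale, which is 2-fold. The pads were selected on the same arrays, so these counts carry no test. In all, 63 of 19494 genes (0.323%) were higher in the pads with high Ckm and 0 (0.0%) were lower. Lists of muscle genes held 104 genes, of which 101 were measured, and 45 of these 101 were among the 63 (71.4% of the 63, 44.6% of the 101). The median difference was 0.88 over the 101 members and 0.02 over all genes. Of the 101 members, 76 lay above the 40th percentile of their array in at least 3 of the 12 pads, and 30 of the 45 exceeded that percentile in at most 3 of the 7 pads with low Ckm.

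**Figure D1:**
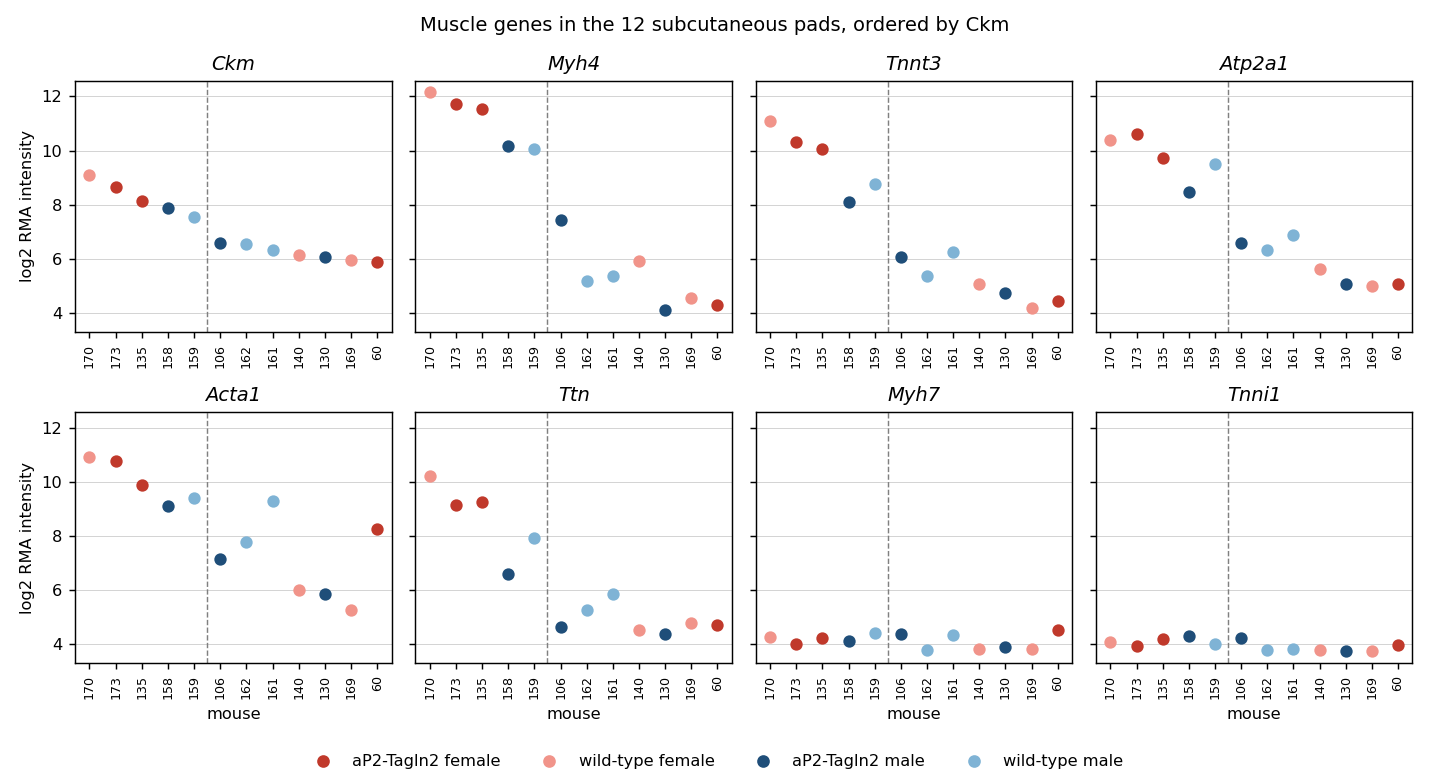
Log2 RMA intensity of 8 muscle genes (vertical axis) in the 12 subcutaneous pads, 1 point per pad, ordered by Ckm and coloured by genotype and sex; the dashed line separates the 5 pads with Ckm above 7.5 from the 7 below 7. Myh4, Tnnt3, Atp2a1 and Ttn do not overlap between the sets, and Acta1 does. The slow-fibre genes Myh7 and Tnni1 lie between 3.72 and 4.50 in every pad, below the 40th percentile of each array.

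Genes of the fast contractile apparatus differed most. Of 14 fast-fibre genes, 13 were higher without overlap, with a median difference of 3.16, and the mean of the list ran from 7.40 to 9.50 in the pads with high Ckm and from 4.76 to 6.04 in the others. Myh4, the myosin heavy chain of the fastest fibres, was 12.15, 11.71, 11.54, 10.15 and 10.07 in mice 170, 173, 135, 158 and 159. In mice 106, 162, 161, 140, 130, 169 and 60 it was 7.43, 5.17, 5.35, 5.93, 4.09, 4.54 and 4.28. The sets stood 2.64 apart at their nearest values and their means differed by 5.87, and mouse 106 was the highest of the lower set.

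The troponins of fast fibres, which make the thin filament respond to calcium, were higher as a group. Tnnt3 had a mean of 9.66 ± 1.23 (SD, n = 5) against 5.15 ± 0.78 (n = 7), a difference of 4.51. Tnni2 differed by 3.72 and Tnnc2 by 3.07. The fast regulatory light chain Mylpf was 10.62, 9.85, 9.27, 7.29 and 7.51 in mice 170, 173, 135, 158 and 159 and between 3.25 and 6.11 in the other pads, a difference of 4.49. The essential light chain Myl1 differed by 2.34, and its lowest pads were already at 7.77.

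Atp2a1, the calcium pump of the fast sarcoplasmic reticulum, was highest in mouse 173 at 10.61, followed by mice 170 (10.40), 135 (9.71), 159 (9.49) and 158 (8.46). The other pads lay between 4.98 and 6.89, and the means differed by 3.94. Pvalb, the calcium buffer parvalbumin, differed by 3.69 and Casq1, the calsequestrin of fast fibres, by 3.25. Actn3, the alpha-actinin of fast fibres, differed by 2.92, Mybpc2 by 1.72 and Myoz1 by 1.51. Myh1, the IIx heavy chain, differed by 2.16. Myh2, the IIa heavy chain, was the only fast-fibre gene whose sets overlapped: 4 of the 5 pads lay between 5.51 and 5.71, within the range of the lower set (4.23 to 6.03), and mouse 159 stood at 8.07.

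Slow-fibre genes showed no such difference. Of 10, only Mybpc1, a myosin-binding protein of slow and of some fast fibres, met the rule, with a difference of 1.53, and the median of the list was 0.27. Myh7, the slow heavy chain, had a mean of 4.20 ± 0.15 (SD, n = 5) against 4.07 ± 0.31 (n = 7) and overlapped. Tnni1 differed by 0.24, Tnnc1 by 0.24 and Tnnt1 by 0.20. Myl3 (0.51) and Myoz2 (0.50) followed Mybpc1, each with overlap. Of the 10, 6 lay above the 40th percentile of their array in at least 3 of the 12 pads. Myh7, Myl2, Tnni1 and Myoz2 lay below it in every pad, so their values say little about slow fibres. Small positive differences were common at low levels: over the 7798 genes below the 40th percentile of mean level the median difference was 0.13, and over the other 11696 it was -0.09.

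**Figure D2:**
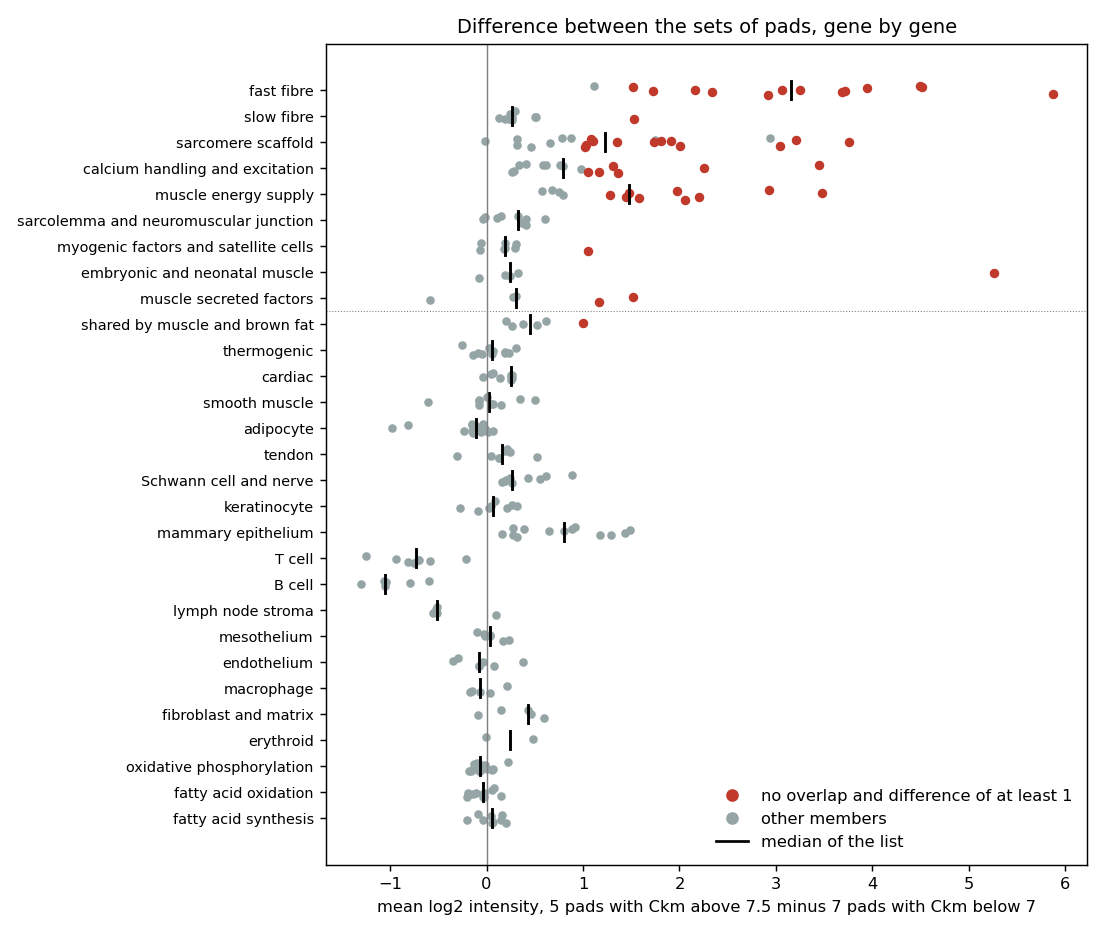
Difference in mean log2 intensity between the 5 pads with high and the 7 pads with low Ckm (horizontal axis), 1 point per measured gene, grouped by list; black bars are list medians and red points are genes without overlap that differed by at least 1. The 9 muscle lists stand above the dotted line, and among the 20 others 1 gene, Ckmt2, is red.

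Among structural proteins of the sarcomere, 12 of 22 were higher, with a median difference of 1.23. Ttn, the giant spring of the sarcomere, was 10.21, 9.14, 9.25, 6.58 and 7.92 in mice 170, 173, 135, 158 and 159, against 4.36 to 5.85 in the other pads, a difference of 3.75. Neb, which spans the thin filament, differed by 3.21, and Myot, a protein of the Z-disc, by 3.04. Tpm2 (mean 9.16 against 7.16), Xirp2 (difference 1.92) and Klhl41 (1.81) were also without overlap. Trim63, a muscle ubiquitin ligase, was 8.32 in mouse 170 and between 5.63 and 6.84 in the other 4 pads, against 4.41 to 5.09. The smallest differences of the list were those of Myom3 (-0.01) and Csrp3 (0.31).

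Acta1, skeletal alpha-actin, overlapped between the sets in spite of a large mean difference. It was 10.91, 10.78, 9.87, 9.11 and 9.41 in mice 170, 173, 135, 158 and 159, but also 9.30, 8.26, 7.78 and 7.13 in mice 161, 60, 162 and 106, and between 5.25 and 6.00 in mice 140, 130 and 169. Its mean difference was 2.93, yet mouse 161 lay above mouse 158, so it was not among the 45. Myom2 (1.74) and Mylk2 (1.36) of the same list overlapped too, and Myom2 was 3.959 in mouse 161 and 3.635 in mouse 158.

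For calcium release and excitation, 6 of 15 members were higher, with a median difference of 0.80. Trdn, which anchors calsequestrin to the release channel, differed by 3.45 and was 8.73, 7.92 and 8.31 in mice 170, 173 and 135 but 5.07 and 5.99 in mice 158 and 159, against 3.42 to 4.06 in the other pads. The release channel Ryr1 differed by 2.25, the voltage sensor Cacna1s by 1.31 and its subunit Cacng1 by 1.05. Hrc and Srl, proteins of the reticulum, differed by 1.37 and 1.16. Sln, an inhibitor of the calcium pump found mainly in slow and atrial muscle, overlapped, with a difference of 0.33, while Jsrp1 and Kcnj11 differed by 0.26 and 0.29.

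Of 13 genes for energy supply, 9 were higher, Ckm itself included, with a median difference of 1.48. Pygm, the glycogen phosphorylase of muscle, was 10.73, 10.13, 9.25, 8.20 and 8.16 in mice 170, 173, 135, 158 and 159 and between 5.44 and 6.36 in the others, a difference of 3.48. Ppp1r3a, which targets a phosphatase to glycogen, differed by 2.93. Eno3, the enolase of muscle, differed by 2.21, the AMP deaminase Ampd1 by 1.97 and Cox6a2, a muscle subunit of cytochrome oxidase, by 1.58. The difference in Ckm, which chose the pads, was 2.06. Phosphorylase kinase genes Phkg1 (0.58) and Phka1 (0.75) overlapped, as did Mb, myoglobin (0.68).

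Members that belong to muscle stem cells, synapses and the fibre membrane mostly overlapped between the sets. Of 8 myogenic factors and satellite cell genes only Myf6, the factor most expressed in mature fibres, met the rule, at 5.17, 4.55, 4.60, 4.40 and 4.12 in mice 170, 173, 135, 158 and 159 against 3.25 to 3.92. Pax7, the marker of satellite cells, differed by -0.06, Myog by -0.06, Myod1 by 0.18 and Mymk by 0.30. Only 2 of these 8 genes lay above the 40th percentile of their array in at least 3 of the 12 pads. Myod1 and Mymk did so in no pad, so most of these values are near the background. None of 9 genes of the sarcolemma and neuromuscular junction was higher by the rule; Sgca, at 0.60, was without overlap but under the size required, Cav3 differed by 0.41 and Dysf by -0.04, and the receptor subunits Chrna1 and Chrnb1 by 0.16 and -0.02. Among secreted and related factors, Apobec2 (1.52) and Mstn, myostatin (1.17), were higher, while Fndc5 (0.27) and Il15 (-0.58) overlapped.

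Of 5 embryonic and neonatal genes 1 was higher, Myh8, the perinatal heavy chain. It was 11.55, 11.15, 10.87, 9.57 and 9.59 in mice 170, 173, 135, 158 and 159, against 6.80 in mouse 106 and 4.52 to 5.97 in the others, a difference of 5.25. The other members of that list overlapped: Myh3, the embryonic heavy chain, differed by 0.25, Actc1 by 0.19, Myl4 by 0.33 and the fetal receptor subunit Chrng by -0.08. Myh3, Myh2, Myh1, Myh4, Myh8 and Myh13 lie in this order among the genes of chromosome 11 and are close copies, so probes for one may also bind RNA of another, and the values of single genes among them, Myh4 and Myh8 included, are uncertain for that reason.

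Outside the muscle lists, 18 genes met the rule, 1 of them a predicted gene. Klhl31 was the largest, with a difference of 3.14: it was 8.39, 7.45, 6.58, 5.02 and 5.17 in mice 170, 173, 135, 158 and 159 and at most 3.62 in the others. Tmod4, which caps thin filaments in skeletal muscle, differed by 2.30, Hjv by 1.67 and Tpm1, a tropomyosin, by 1.66. Asb15 (1.42), Nrap (1.34), Asb5 (1.33), Camk2a (1.31), Alpk3 (1.30), Ano5 (1.25) and Cmya5 (1.16) came next. Tcea3, Usp13, Fbxo40, Cap2, Rbfox1 and Ckmt2 differed by 1.001 to 1.095. Apart from Klhl31, these names were chosen after their values were seen.

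No gene was lower by the rule. With no minimum size, 113 genes were higher and 23 lower without overlap. The largest fall among the 23 was that of Ptk2b, a kinase, at 4.88 to 5.18 in the pads with high Ckm against 5.39 to 6.40, a difference of -0.94. Zfp36l2 (-0.75) and Msn (-0.74) followed; these 3 genes were chosen after their values were seen.

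The 5 pads did not carry the muscle genes in equal amount. Over the 45 higher members, the median elevation above the mean of the 7 pads was 3.20, 2.46, 1.91, 1.09 and 1.45 in mice 170, 173, 135, 158 and 159. Mouse 170 was the highest pad for 36 of the 45, mouse 173 for 6 and mouse 159 for 3. For 34 of the 45 (75.6%) all 3 female pads lay above both male pads of the set, beside 19.7% of all genes. Both male pads are those of mice 158 and 159, whose arrays had the lowest spread, so sex and array spread cannot be told apart here. Within females Myh4 differed by 6.88 between the sets (3 against 3) and Ckm by 2.65; within males the differences were 4.60 and 1.33 (2 against 4).

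A few muscle genes, picked after their values were seen, were highest in mouse 159 by a wide margin. It was the highest of the 12 pads for 13 of the 101 members, beside 8.87% of all genes. The same count was 16 for mouse 158, beside 22.9% of all genes, and 52 for mouse 170, beside 5.87%. Some of the 13 barely differed between the sets, such as Myh7b (0.26) and Actc1 (0.19). Myh1 was 8.10 there and between 6.00 and 6.96 in the other 4 pads, and Mb was 8.18 against 6.45 to 6.77. Mybpc1 was 7.10 against 5.46 to 6.54, Actn2, an alpha-actinin, 6.92 against 5.47 to 6.02, and Myoz2, a slow calsarcin, 5.07 against 3.34 to 3.84. Ckmt2, the mitochondrial creatine kinase, was 5.79 against 4.34 to 5.13. For Myh4, Ckm and Mylpf, by contrast, mouse 159 was the lowest or the last but one of the 5. This is 1 pad, so no replicate of the pattern exists. Myh7 was 4.39 in that pad, inside the range of the lower set (3.79 to 4.50).

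**Figure D3:**
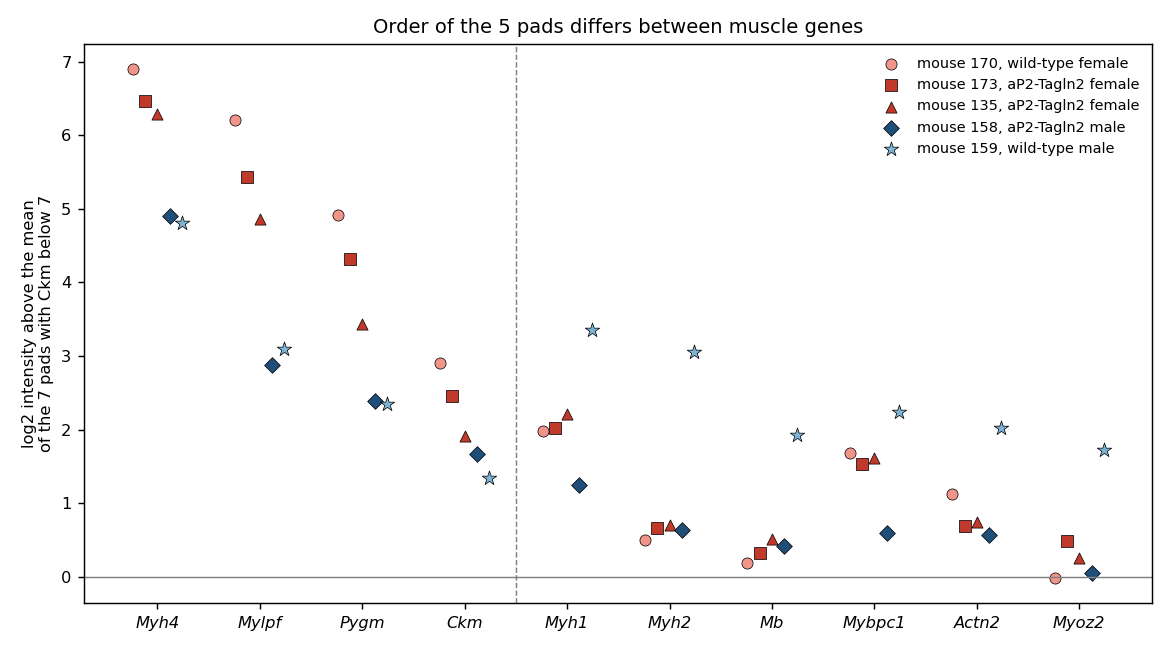
Log2 intensity of 10 muscle genes above the mean of the 7 pads with low Ckm (vertical axis) in each of the 5 pads with high Ckm, 1 symbol per mouse. Left of the dashed line mouse 170 is highest and mice 158 and 159 lowest; right of it, for genes picked because mouse 159 leads them, the star of mouse 159 stands above the other 4.

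The pads below 7 were set against visceral fat. The number of the 45 higher members that exceeded all 12 visceral samples was 21, 17 and 13 in mice 161, 106 and 162. It was 6, 5, 2 and 1 in mice 140, 60, 130 and 169. In the pads with high Ckm it was 40 to 44, beside 7.23% to 32.5% of all genes. In mice 161, 106 and 162 this was 46.7%, 37.8% and 28.9% of the 45, while 11.97%, 21.5% and 14.7% of all genes exceeded every visceral sample. Among genes below the 40th percentile of mean level, the share in these mice was 16.9%, 24.5% and 23.4%. In mice 140, 60, 130 and 169 it was 2.22% to 13.3% of the 45, beside 12.9% to 19.2% of all genes and 11.1% to 22.6% of those of low level. The standard deviation of the arrays was 1.67, 1.64 and 1.65 in mice 161, 106 and 162, and 1.66 in mouse 140, and its part in these counts was not tested. Low Ckm alone does not show that a pad lacked muscle, so the sets are named here by Ckm. Over these 7 pads alone, the 100 members other than Ckm had a median Pearson correlation with Ckm of 0.43 (82 above 0), against -0.01 over all genes, and Myh4 had 0.71. Ckm ran against the standard deviation of the array in these pads, which was 1.64 in mouse 106, where Ckm was highest, and 1.76 in mouse 60, where it was lowest. The median correlation was 0.21 over genes below the 40th percentile of mean level and -0.12 over the others, and for muscle members it was 0.29 (36 genes) and 0.53 (64 genes). The part of the array spread in these correlations was not tested. Outside the lists, the genes most like Ckm across the 7 pads were Slc18a3 (0.98), Scgb1a1, Ltk, Pomgnt2, Syt4, Popdc3 (0.97), Sftpa1, Olfr564, B3gat1 and Olfr978. Of these, Popdc3, a membrane protein of striated muscle, was also without overlap between the sets, at 5.45 to 6.02 against 4.48 to 5.23. These correlations describe 7 points that share their arrays.

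Markers of other cells were compared over the same pads. No cardiac gene met the rule, and 8 of 9 had a slightly higher mean (median 0.25, list mean 4.65 to 5.16 against 4.60 to 4.91). Smooth muscle genes had a median difference of 0.03, thermogenic genes of 0.06 and oxidative phosphorylation genes of -0.06. All 13 mammary epithelial genes measured had a higher mean, with a median of 0.80 and wide overlap, the list mean running from 4.66 to 7.02 against 4.34 to 6.88. That mean was 6.46 to 7.02 in the female mice 170, 173 and 135 of the higher set and 140 and 169 of the lower. It was 4.34 to 4.91 in mouse 60 and every male, so the difference between the sets cannot be told apart from these females. All 8 T cell genes and all 6 B cell genes had a lower mean, with medians of -0.73 and -1.05, again with overlap (T cell list mean 4.53 to 6.42 against 4.54 to 8.03). Adipocyte genes had a lower mean in 15 of 17 (median -0.11), and all 9 nerve and Schwann cell genes had a higher one (median 0.26). Fibroblast and matrix genes had a higher mean in 4 of 5 (median 0.43, list mean 8.71 to 10.50 against 8.96 to 9.60), and tendon genes differed by a median of 0.16. The part of these cells in the muscle difference was not tested.

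The spread of the arrays moved with the split in part. The standard deviation of an array was lowest in the subcutaneous arrays of mice 158 (1.46), 159 (1.55) and 135 (1.58), all in the set with high Ckm, against 1.64 to 1.76 in the set with low Ckm. Array medians lay between 5.45 and 5.67 in all 24. Without mice 158 and 159, a choice made after the data were seen, 95 genes were higher, 51 of them muscle members. Of the 45, 43 still met the rule. Leaving out pads cannot create an overlap, so only the size required could remove a gene. That count therefore says nothing about the part of the array spread, which was not tested. Tagln2 was 9.13 to 11.48 in the aP2-Tagln2 samples and 7.22 to 8.78 in the wild-type samples. In mouse 60 the mesothelial gene Upk3b, which marks visceral fat, was 7.59 in the subcutaneous and 4.39 in the visceral sample, the reverse of the other mice, so its depot labels are uncertain. Its Ckm was below 7 in both samples (5.87 and 6.02).

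The visceral samples of the same 12 mice took no part in the choice. Whether the mice whose pads had high Ckm also had more muscle RNA there was tested with limma on 12487 genes. No gene passed in either direction (0.0% up, 0.0% down) after Benjamini-Hochberg adjustment, and 238 had an unadjusted p under 0.05. Of the 50 muscle members tested, 0 passed, and their median difference was -0.02. Visceral Ckm was 5.84, 6.31, 6.15, 5.60 and 6.01 in mice 170, 173, 135, 158 and 159, and between 5.28 and 6.43 in the other 7. The means were 5.98 ± 0.27 (SD, n = 5) and 5.99 ± 0.40 (SD, n = 7), a difference of -0.01 (two-sided exact permutation test over 792 arrangements, p = 0.951). Visceral Myh4 lay between 3.95 and 5.25 in all 12 mice. Visceral Trdn was highest in mice 135 (6.32), 170 (5.84), 140 (5.44) and 169 (5.14), against a median of 3.76. These mice come from both sets and are all females. The other females, mice 173 and 60, were at 4.745 and 3.46, and the males lay between 2.96 and 3.96.

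**Figure D4:**
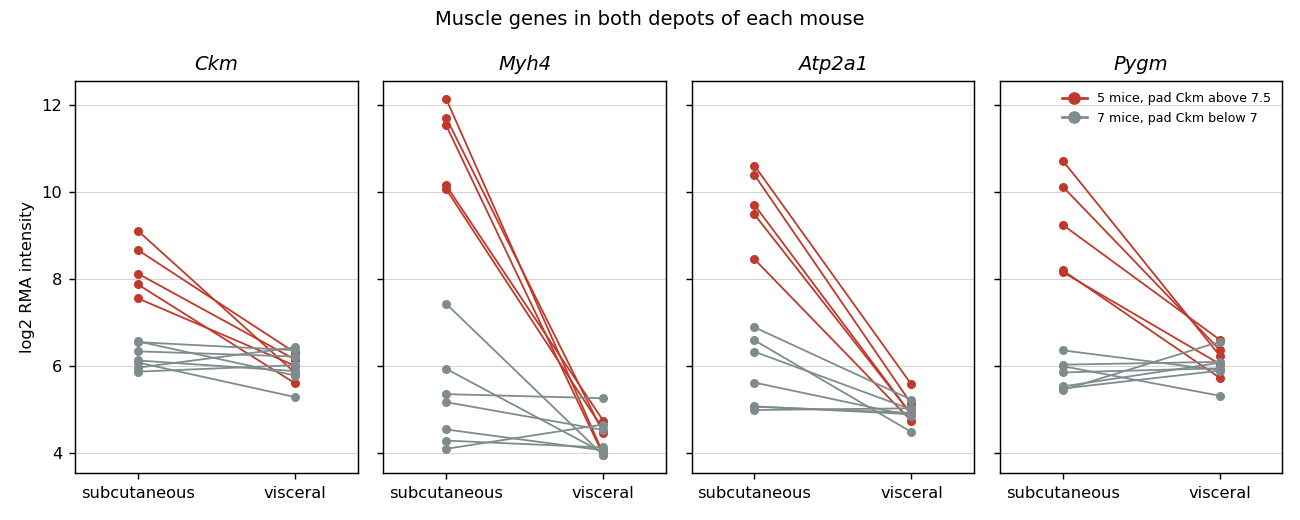
Log2 RMA intensity of 4 muscle genes (vertical axis) in the subcutaneous and the visceral sample of each of the 12 mice, joined by a line; red marks the 5 mice whose pad had Ckm above 7.5. Visceral values of the red and grey mice overlap for all 4 genes, and visceral Myh4 lies between 3.95 and 5.25.

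The labelled comparison of depots was then read for the muscle genes. Across all 24 arrays, limma found 1515 of 13552 genes higher (11.2%) and 3533 lower (26.1%) in subcutaneous tissue. Of 78 muscle members tested, 37 passed as higher and 3 as lower, with a median of 0.56 against -0.08 over all genes tested. Myh4 was 3.35 higher (SE 0.91, limma adjusted p = 0.00809), Myh8 3.11 higher (SE 0.81, adjusted p = 0.0059), Atp2a1 2.47 higher (SE 0.62, adjusted p = 0.00488) and Ckm 1.08 higher (SE 0.34, adjusted p = 0.0173). Fast-fibre genes passed in 10 of 14, sarcomere genes in 9 of 18, energy genes in 8 of 13 and calcium-handling genes in 7 of 14. Among slow-fibre genes 1 of 6 passed, Myl3, at 0.48. The 3 lower members were Chrnb1 (-0.88), Dysf (-0.45) and Phkg1 (-0.42).

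These fits include the arrays that chose the pads, and the depot difference in muscle genes was smaller without the 5 mice of high Ckm, a fit that also has fewer samples. In the other 7 mice, whose pads had low Ckm, 3 members passed as higher, namely Atp2a1 (0.79, SE 0.23, limma adjusted p = 0.038), Myh2 (0.57, adjusted p = 0.0407) and Il15 (0.42, adjusted p = 0.0494), beside 5.27% of 13003 genes. Of the 78 members tested with all mice, 54 were tested there. The rest, Ttn, Mylpf and Neb among them, met the filter only with the arrays of the 5 mice of high Ckm. Their place in the first fit thus depends on the pads that the rule chose. They also included Chrnb1 (-0.86), Phkg1 (-0.51), Dysf (-0.43) and the fast-fibre gene Myl1 (-0.34), lower in subcutaneous tissue in the fit of 7 mice. Mouse 60 is the only aP2-Tagln2 female left in this fit, so effect sizes alone are given. Low Ckm chose these 7 pads, which itself lowers the depot difference of muscle genes, so Ckm (0.17) and Myh4 (0.80) are given as values only. Leaving out single mice moved the count of 37 members that passed as higher with all mice: it was 17 without mouse 135, 18 without mouse 159 and 23 without mouse 173. It rose to 46 without mouse 60, whose depot labels are uncertain, and Ckm was then 1.27 and Myh4 3.95 higher. Without mouse 159 Ckm no longer passed (0.96, adjusted p = 0.0565). With the mouse as a block, which pairs the 2 samples of an animal, 35 members were higher.

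The genotype comparison in subcutaneous tissue, for which the study was designed, showed no muscle gene past the test. Of 13001 genes, 1 was higher in aP2-Tagln2 mice (0.00769%), namely Tagln2 itself (2.30, SE 0.26, limma adjusted p = 0.00977), and 0 were lower (0.0%), while 250 had an unadjusted p under 0.05. Tagln2 missed the threshold without mouse 135 (adjusted p = 0.0504), 161 (0.0592) or 162 (0.0584). None of the 76 muscle members tested passed. Ckm differed by 0.26 (SE 0.60) and Myh4 by 1.001 (SE 1.64), each less than its standard error. Leaving out the 5 pads leaves mouse 60 alone in its group of females and assumes that it varies like the other groups. The count of genes that passed, which rose in that fit, is therefore not given. Low Ckm chose the pads that remain, so Ckm (-0.15) and Myh4 (-0.23) are given as values only. Without the narrow arrays of mice 158 and 159 Tagln2 had an adjusted p of 0.16 by limma, and 0 genes passed.

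Between the sexes, 107 of 13001 genes were higher (0.823%) and 50 lower (0.385%) in subcutaneous tissue of females by limma. Again 0 of 76 muscle members passed, although 50 had a positive difference (median 0.44), and Phka1 came nearest to the threshold (1.01, SE 0.29, adjusted p = 0.142). Ckm differed by 0.48 (SE 0.60, adjusted p = 0.693) and Myh4 by 1.32 (SE 1.64, adjusted p = 0.695). Without the 5 pads, mouse 60, whose depot labels are uncertain, is the only aP2-Tagln2 female, and low Ckm chose the pads that remain. Effect sizes alone are therefore given for that fit. Cox6a2, the member of lowest p, was -0.68 (SE 0.14), Ckm -0.43 and Myh4 -0.75 in females against males. With single mice left out, the count of genes that passed was 315 without mouse 135 and 272 without mouse 60. It was between 77 and 96 without mouse 106, 140, 159, 162, 169, 170 or 173.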

How the data were processed

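The authors deposited log2 intensities from RMA (background correction, normalization across arrays, 1 summary value per probe set), per the submitters' processing notes; those also name limma, without a version. The log base was inferred from the range of values, 1.68 to 13.08. Of 22142 probe sets, 19527 name 1 gene symbol and 2615 several or none, which gave 19494 genes; for 33 with several probe sets the one with the highest mean was used. Arrays have no read depth, and their number limits the precision. Separate mice are the replicates.

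Comparisons by label used limma 3.58.1 (lmFit, eBayes) in R 4.3.3 on genes above the 40th percentile of their array in at least 3 arrays, with Benjamini-Hochberg adjustment over all genes tested and a threshold of 0.05, and the fit was tested on simulated data. The split by Ckm was described with Python 3.11.15 and carries no test. The pads, the gene lists and the comparisons were chosen with earlier results of these data known. Genes were named by a rule: the 15 largest differences without overlap, the 2 largest and 2 smallest of each muscle list, the lowest p within lists and 8 genes always; others are marked as chosen after their values were seen or serve to describe a list. Both samples of a mouse come from 1 animal, which pairs them; their departures from the group means had correlations of -0.23 to 0.17, above 0.1 for 4 of 12 mice. Alternatives were other normalizations, filters and thresholds, the mouse as a block, Ckm as a covariate and leaving out mice.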

Additional observations from a re-analysis of the deposited data

Results flagged for a closer look

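Over 68 sets of 6 samples of one genotype and depot, 1 value stood far from the other 5. The mean of the muscle secreted and related factors was 5.417 in the subcutaneous pad of mouse 170, against 4.43 to 4.77 in the other wild-type pads, a gap of 0.65 of the range. Chance flags about 1 in 20 such sets. Mouse 170 also had the highest Ckm of the 12 pads. The aP2-Tagln2 pads of mice 173 and 135, also of high Ckm, had similar means of 5.362 and 5.356, so the value is not particular to mouse 170.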

How the results depend on the processing

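The split gave 24 higher genes, 22 of them muscle members, at a log2 difference of at least 2. Genes lower numbered 8 at 1.5-fold, 5 within each sex and 3 without the 2 narrowest arrays, against 0; the last setting gave 95 higher. Leaving out each mouse gave 52 to 82 higher genes, 40 to 51 muscle members and 0 to 4 lower genes. For the depot difference the same gave 3593 to 5892 genes, with 17 to 46 members higher and 1 to 3 lower, and a second quantile normalization gave 1 lower member. Without the 5 mice 1997 genes passed, with 3 members higher. In that fit Chrnb1, Phkg1, Dysf and Myl1 were lower. The replicate block, pairing the samples of a mouse, gave 4570 genes against 5048 and 35 members against 37, and it ended no call of Ckm or Myh4. The genotype count was 0 without the 2 narrowest arrays and 0 to 1 without each mouse, with Ckm at -0.0211 to 0.769. Without the 5 pads mouse 60 is alone in its group, so the genotype count, which lay above this range, is not given. The genotype differences there were -0.147 in Ckm and -0.226 in Myh4. The sex count was 607 without the 5 pads, with 1 member lower, Ckm at -0.427 and Myh4 at -0.751, 64 without the 2 narrowest arrays and 77 to 315 without each mouse, with Ckm at -0.0281 to 0.905. Visceral Ckm differed by -0.133 to 0.0808 without each mouse, by either test. The cause was not tested, beyond the fewer samples in fits that leave mice out. The limits are 5 pads against 7, a threshold set on 1 gene, no second array of any pad, low members near the background of the array, and neighbouring myosin genes whose probes may share targets.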
